A study of Homo sapiens with 6 samples.

Results

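The genes described here are the 48 genes of DNA replication origins and forks that were chosen by name, out of 58735 genes in the deposited tables. These 48 and the gene lists set beside them were chosen with earlier results of these data known. They code for the proteins that mark origins, load and start the replicative helicase, copy both strands, and protect the fork. RNA was measured in H2452 cells, a human pleural mesothelioma line, in 3 sgCtrl libraries (labelled WT, a scrambled guide RNA) and 3 sg*NF2*-1 libraries (labelled *NF2*-KO, a guide RNA against *NF2*). Both groups had received Cas9 and a guide RNA by lentivirus with an mCherry reporter and were sorted for mCherry, so each is a population of cells under its guide RNA and not a single clone. No further treatment or time point separates the groups, and the labels do not say whether replicates were separate cultures. The study's statistics section calls its data biological replicates in general, without describing these libraries, and p-values measure the spread between them.

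Replication starts in 2 stages that the cell cycle keeps apart. In G1, the origin recognition complex, CDC6 and CDT1 load the ring of MCM2 to MCM7 onto origins, and geminin later blocks CDT1 so that origins are loaded once. In S phase, the kinase CDC7 with DBF4 helps to turn the loaded ring into an active helicase with CDC45 and GINS, after which polymerases, the sliding clamp PCNA and its loader RFC copy the DNA. Many of these genes are transcribed in late G1 and S phase under the E2F factors, which the retinoblastoma family of pocket proteins holds back. *NF2* codes for merlin, a tumour suppressor that acts upstream of the Hippo kinases and is often lost in mesothelioma.

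The E2F-type letters in the promoters show what many of these genes share beyond their function. RefSeq promoter windows (GRCh38.p14, 250 bases before to 50 after the start, 300 in all) were at hand for 41 of the 48 genes, in 53 promoters. The words TTTCCCGC, TTTCGCGC, TTTGCCGC and TTTGGCGC were searched on both strands, and words on opposite strands may overlap. At least 1 of them lay in 23 of the 53 promoters (43.4%), against 3.31% of all 35116 promoters of the same length and 4.91% of the promoters of tested genes. Stretches of 100 bases from 7 promoters are printed 5′ to 3′ on the strand of the gene, with the words in capitals, to set genes that fell beside genes that did not. The first 5 genes were lower in sg*NF2*-1, *MCM7* was higher, and *CDT1* did not pass the test. These 7 are a selection from the 23 promoters holding a word, and their split by call does not reflect the shares given below.
PCNA (chr20:5126628-5126727, minus strand): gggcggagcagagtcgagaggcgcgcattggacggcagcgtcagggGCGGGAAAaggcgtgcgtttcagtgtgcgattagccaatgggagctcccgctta
CDC7 (chr1:91501012-91501111, plus strand): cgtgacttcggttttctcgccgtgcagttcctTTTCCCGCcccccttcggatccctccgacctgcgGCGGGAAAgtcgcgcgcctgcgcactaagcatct
GMNN (chr6:24775287-24775386, plus strand): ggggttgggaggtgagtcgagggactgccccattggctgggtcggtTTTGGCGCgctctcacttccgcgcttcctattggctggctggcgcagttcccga
MCM6 (chr2:135876476-135876575, minus strand): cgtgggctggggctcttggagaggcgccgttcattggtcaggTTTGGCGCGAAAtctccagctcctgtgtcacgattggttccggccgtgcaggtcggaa
UHRF1 (chr19:4909401-4909500, plus strand): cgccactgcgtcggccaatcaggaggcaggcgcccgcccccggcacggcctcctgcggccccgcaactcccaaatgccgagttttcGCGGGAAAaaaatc
MCM7 (chr7:100101398-100101497, minus strand): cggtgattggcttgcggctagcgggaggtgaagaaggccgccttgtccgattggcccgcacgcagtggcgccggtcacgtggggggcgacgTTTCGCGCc
CDT1 (chr16:88803689-88803788, plus strand): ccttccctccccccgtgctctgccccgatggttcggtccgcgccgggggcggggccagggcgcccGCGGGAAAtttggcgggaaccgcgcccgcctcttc
In *PCNA* the word began 59 bases before the start site (-59) and read on the opposite strand. The capitals in *MCM6* are a pair of words on opposite strands that share letters, at -90 and -86, and *CDC7* held a separate pair at -68 and -34. Among genes with a promoter at hand, a word was found for 12 of the 19 that fell, 9 of the 18 that did not pass the test and 1 of the 4 that rose. These shares (63.2%, 50% and 25%) were not compared by a test, and a match is a description, not a site. Of other words searched on both strands, CCAAT lay in 56.6% of the 53 promoters, against 34.6% of all promoters and 34.5% of those of tested genes. The CHR core TTTGAA lay in 1.89%, against 15.2% and 10.4%, and the TEAD core GGAATG in 15.1%, against 14.03% and 11.5%.

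The targeted gene was read first. *NF2* stood at 73.7, 72.9 and 67.5 CPM in sgCtrl and at 39.3, 52.0 and 41.4 CPM in sg*NF2*-1, where CPM is the count scaled to a common library size with TMM factors. Each sg*NF2*-1 value lay under the lowest sgCtrl value, with a log2 fold change of -0.69 (SE 0.10, edgeR adjusted p = 7.9e-06). Total counts per library ran from 14782423 to 17416463, and mitochondrial genes took 2.65% to 3.69% of the counts in sgCtrl and 3.67% to 4.67% in sg*NF2*-1. Of 10 mesothelial markers 9 were tested, 3 higher and 3 lower by edgeR, against 17.7% higher and 16.6% lower of all tested genes. The largest changes were in *PDPN* (67.9 CPM in sgCtrl and 28.0 in sg*NF2*-1), *KRT7* (236 and 543 CPM) and *WT1* (10.01 and 4.86 CPM). *KRT19* was lower too (566 and 296 CPM), *MSLN* (36.4 and 57.6 CPM) and *KRT18* (797 and 966 CPM) were higher, *CALB2* and *UPK3B* were under 5 CPM and *KRT5* was too low to test. *KRT8*, the most abundant of these markers, overlapped between the groups (1961 and 1730 CPM, edgeR adjusted p = 0.16). Of 10 markers of blood, endothelium, fat and muscle, 4 passed the filter, and *CD14* (139 and 66.9 CPM) and *PECAM1* (6.31 and 1.296 CPM) were lower in sg*NF2*-1.

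Most of the replication genes that changed were lower in sg*NF2*-1. By edgeR's quasi-likelihood test at an adjusted p under 0.05, 23 of the 48 fell (47.9%) and 4 rose (8.33%), against 16.6% lower and 17.7% higher among all 14179 tested genes. All 48 passed the filter on low counts. The list was chosen with earlier results of these data known, so its shares are a description and not a test. The median log2 fold change was -0.28, against -0.00 over all tested genes, and 34 of the 48 values were below 0. The deepest falls were in *POLE2*, *PCNA*, *CLSPN*, *MCM10*, *ORC1* and *CDC7*, and the rises were in *ORC5*, *POLD2*, *MCM7* and *RFC1*. The order of these falls depends on single libraries. With a library left out, the log2 fold change ran from -1.17 to -0.59 for *MCM10* and from -1.05 to -0.59 for *CLSPN*. In bulk RNA, fewer cells in S phase and less RNA per cell cannot be told apart.

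Other ways of counting gave the same leaning. Taking genes at an unadjusted p under 0.05 whose log2 fold change passed 0.5 in size, 12 genes were lower and 2 higher, against 10.8% and 9.22% of all tested genes. The 3 sg*NF2*-1 values all lay under the 3 sgCtrl values for 30 genes and over them for 5, against 22.2% and 23.2% of tested genes, and the groups overlapped for 13. With the deposited FPKM (fragments per gene length and sequencing depth) on the log2(FPKM + 1) scale, limma called 20 lower and 3 higher of the 48, against 14.1% and 14.3% of 13038 genes. The 4 genes called by edgeR but not there were *ORC6*, *MCM10*, *RFC1* and *RFC5* (limma adjusted p = 0.090, 0.052, 0.068 and 0.056). The 48 genes took 0.245%, 0.237% and 0.239% of all counts in the sgCtrl libraries and 0.224%, 0.220% and 0.223% in the sg*NF2*-1 libraries, without overlap.

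**Figure D1:**
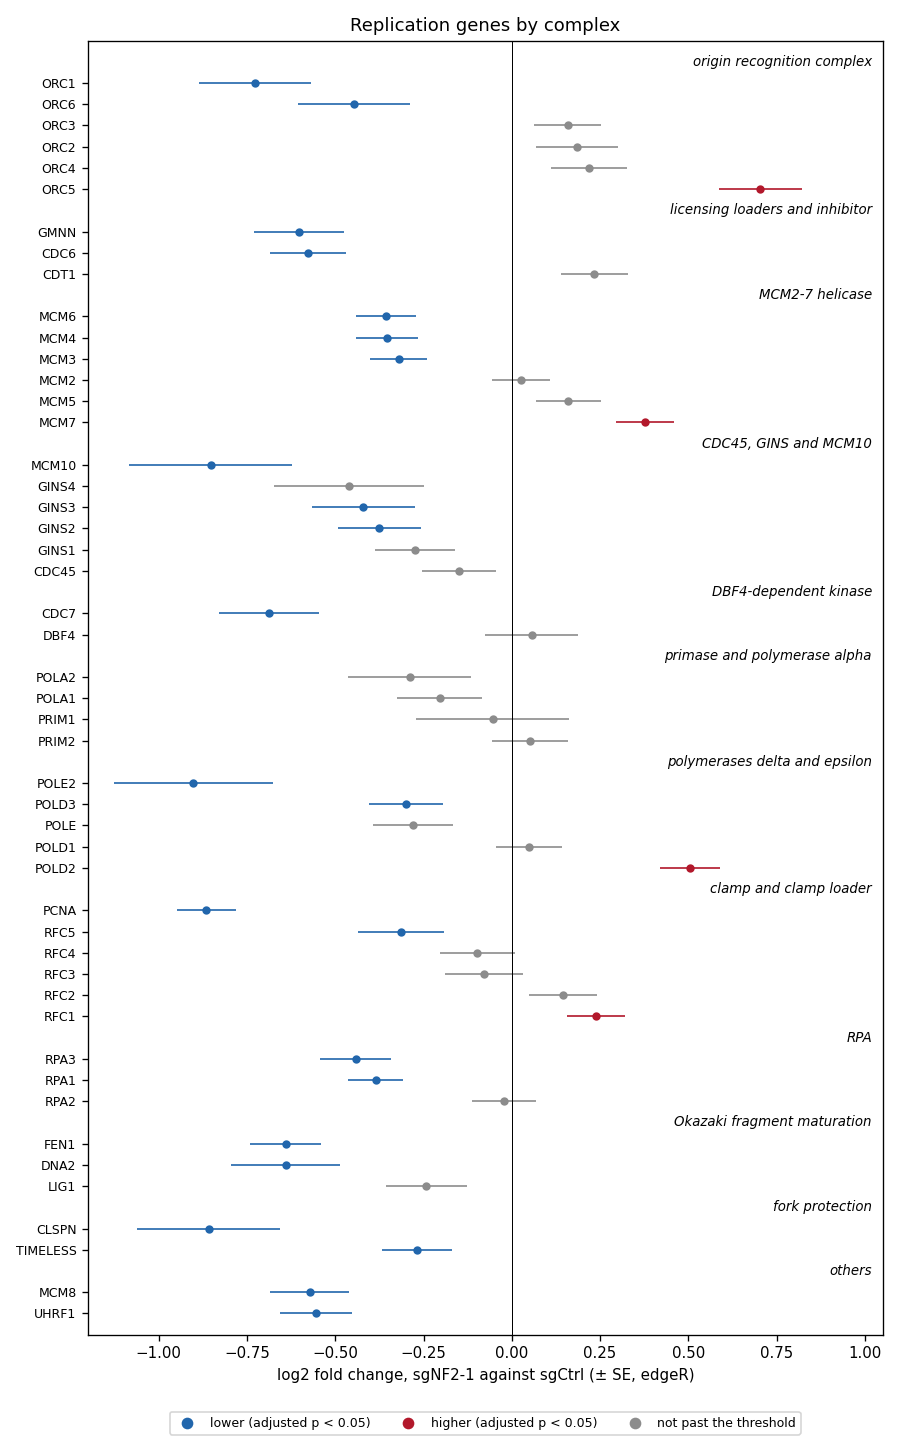
The log2 fold change of each of the 48 replication genes in sgNF2-1 against sgCtrl (x axis; points with SE bars from edgeR), grouped by complex, with genes that fell in blue, genes that rose in red and the rest in grey. The 23 blue points spread over all complexes except primase and polymerase alpha, and the 4 red points are ORC5, MCM7, POLD2 and RFC1.

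Within the origin recognition complex, the ATPase ring that binds origins, subunits moved in opposite directions. *ORC1*, the subunit that in human cells comes and goes with the cycle, stood at 12.2, 13.8 and 11.0 CPM in sgCtrl and 7.33, 8.68 and 6.32 CPM in sg*NF2*-1. Every sg*NF2*-1 library was below the lowest sgCtrl library, with a log2 fold change of -0.73 (SE 0.16, edgeR adjusted p = 8.1e-04). *ORC5*, a core subunit of the ring, stood at 14.1, 14.01 and 14.2 CPM in sgCtrl and 23.5, 23.8 and 21.6 CPM in sg*NF2*-1. The sgCtrl libraries were nearly level and all sg*NF2*-1 libraries were above them, with a log2 fold change of 0.70 (SE 0.12, edgeR adjusted p = 4.5e-05). *ORC6*, the small subunit outside the ring, had a log2 fold change of -0.45 (edgeR adjusted p = 0.031), and its call was lost without sgCtrl replicate 1, sgCtrl replicate 2 or sg*NF2*-1 replicate 2 (adjusted p up to 0.22). *ORC2*, *ORC3* and *ORC4* had log2 fold changes of 0.18, 0.16 and 0.22, and their groups overlapped. Without sgCtrl replicate 3, the highest sgCtrl library for *ORC3* and *ORC4*, these 2 passed the test at 0.28 and 0.38. FPKM takes as length all annotated exonic bases of a gene, so levels compared between genes, here and below, depend on that annotation. On this scale *ORC1* and *ORC5* were alike in sgCtrl (3.70 ± 0.42 and 3.59 ± 0.01, SD, n = 3) and apart in sg*NF2*-1 (2.21 ± 0.36 and 5.78 ± 0.31). This pair holds the lowest and highest log2 fold change of the complex, so the gap in sg*NF2*-1 follows from the choice of pair.

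Of the licensing proteins, the loader and the inhibitor fell and *CDT1* did not. *CDC6*, the ATPase that joins ORC to bring in the MCM ring, stood at 42.4, 38.4 and 50.3 CPM in sgCtrl and 28.8, 29.7 and 29.4 CPM in sg*NF2*-1. Its sgCtrl libraries were spread and its sg*NF2*-1 libraries nearly level, with no overlap and a log2 fold change of -0.58 (SE 0.11, edgeR adjusted p = 1.7e-04). *GMNN*, which codes for geminin, stood at 25.4, 23.2 and 30.9 CPM in sgCtrl and 15.3, 17.6 and 19.6 CPM in sg*NF2*-1. The groups were apart, with a log2 fold change of -0.60 (SE 0.13, edgeR adjusted p = 6.8e-04). The 30 tested genes nearest to *GMNN* on chromosome 6 had a median of -0.59 in log2 fold change, with 14 of them lower, and the part of this region in the fall of *GMNN* was not tested. *CDT1*, which geminin holds back, stood at 61.0, 56.0 and 55.9 CPM in sgCtrl and 60.5, 67.1 and 75.8 CPM in sg*NF2*-1. The lowest sg*NF2*-1 library overlapped the highest sgCtrl library, and the log2 fold change of 0.23 (SE 0.09) did not pass (edgeR adjusted p = 0.058), but did without sg*NF2*-1 replicate 1 (0.31). The FPKM of *CDT1* over that of *GMNN* was 1.64 ± 0.26 in sgCtrl and 2.88 ± 0.05 in sg*NF2*-1 (SD, n = 3), a pair picked after its values were seen.

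The 6 subunits of the MCM2-7 ring, which enter the helicase in equal numbers, did not move together. *MCM7* stood at 146, 141 and 134 CPM in sgCtrl and 170.1, 182 and 194 CPM in sg*NF2*-1. It was higher in all 3 sg*NF2*-1 libraries, with a log2 fold change of 0.38 (SE 0.08, edgeR adjusted p = 8.0e-04). *MCM6* stood at 101, 92.4 and 101 CPM in sgCtrl and 80.2, 71.5 and 78.3 CPM in sg*NF2*-1. It was lower in all 3, at -0.36 (SE 0.08, edgeR adjusted p = 0.0020), and *MCM3* and *MCM4* fell likewise, at -0.32 and -0.35 (edgeR adjusted p = 0.0033 and 0.0028). *MCM2* and *MCM5* had log2 fold changes of 0.03 and 0.16 (edgeR adjusted p = 0.85 and 0.19) with overlapping groups. Of the exonic bases of *MCM2*, 22.7% are shared with an antisense gene that drew almost no counts.

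Per length, the summed MCM2-7 level was close in the 2 groups while its make-up was not. The sum was 120.9, 118.9 and 118.9 FPKM in sgCtrl and 112.3, 114.7 and 121.4 FPKM in sg*NF2*-1, so that the groups overlapped. *MCM7* made up 25.4% ± 0.88 of this sum in sgCtrl and 33.6% ± 1.03 in sg*NF2*-1 (SD, n = 3). The share of *MCM3* went from 24.4% to 19.9%, that of *MCM6* from 18.9% to 15.1% and that of *MCM4* from 8.65% to 6.91%. *MCM2* held 13.4% and 13.9%, and *MCM5* 9.35% and 10.6%. In sgCtrl *MCM7* and *MCM3* were the highest, at 30.3 ± 1.3 and 29.2 ± 1.1 FPKM, within the spread of each other, and in sg*NF2*-1 *MCM7* stood alone at 39.0 ± 2.6 against 23.1 ± 0.8 FPKM.

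**Figure D2:**
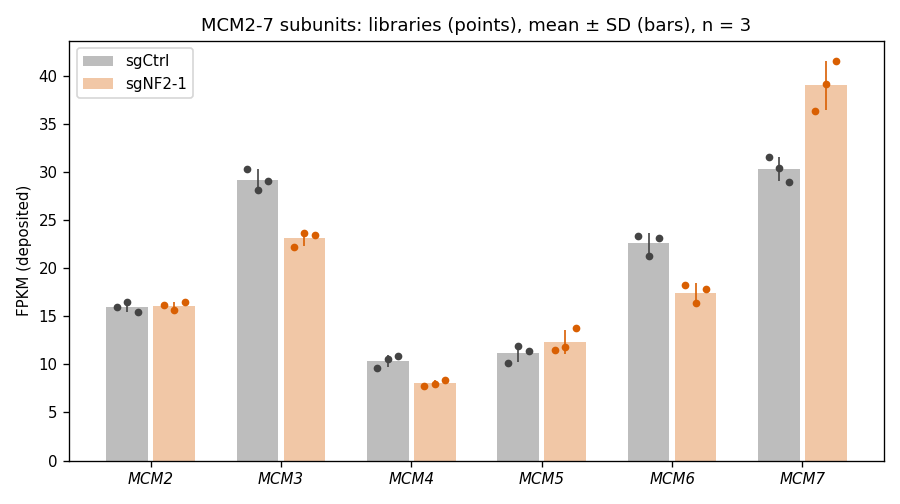
FPKM of the 6 MCM2-7 genes (y axis; points are libraries, bars the mean and lines the SD of 3) in sgCtrl (grey) and sgNF2-1 (orange). MCM7 rose from a mean of 30.3 to 39.0, MCM3, MCM4 and MCM6 fell, and MCM2 and MCM5 overlapped between the groups.

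All 6 genes that activate the ring had every sg*NF2*-1 library below every sgCtrl library, as had 22.2% of all tested genes. Of the 6, 3 passed the test, against 16.6% called lower of all tested genes. *MCM10*, which helps to start unwinding, stood at 6.98, 5.97 and 7.31 CPM in sgCtrl and 5.11, 3.76 and 2.18 CPM in sg*NF2*-1. The sg*NF2*-1 libraries were uneven but stayed below sgCtrl, with a log2 fold change of -0.85 (SE 0.23, edgeR adjusted p = 0.0057), a call lost by limma on FPKM (adjusted p = 0.052). *GINS2* and *GINS3*, subunits of the GINS complex, fell by 0.38 and 0.42 on the log2 scale (edgeR adjusted p = 0.015 and 0.028), though the call of *GINS2* was lost in 2 of the 6 fits with a library left out (adjusted p up to 0.067) and that of *GINS3* in all 6 and with no filter (up to 0.073). *GINS1* and *GINS4* had log2 fold changes of -0.27 and -0.46 (edgeR adjusted p = 0.063 and 0.098). *CDC45*, which joins GINS on the ring, stood at 33.2, 28.9 and 30.5 CPM in sgCtrl and 28.1, 26.5 and 28.9 CPM in sg*NF2*-1. These ranges nearly touched, and its log2 fold change of -0.15 (SE 0.11) was the smallest of the 6 (edgeR adjusted p = 0.29).

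The kinase that fires origins lost transcript in its catalytic subunit. *CDC7* stood at 18.5, 17.5 and 14.8 CPM in sgCtrl and 10.8, 11.9 and 8.78 CPM in sg*NF2*-1. No libraries overlapped, and the log2 fold change was -0.69 (SE 0.14, edgeR adjusted p = 5.3e-04). The 30 tested genes nearest to *CDC7* on chromosome 1 had a median of -0.38, with 11 of them lower, and their part in the fall of *CDC7* was not tested. *DBF4*, its regulatory subunit, stood at 14.97, 12.4 and 15.2 CPM in sgCtrl and 14.9, 15.4 and 13.8 CPM in sg*NF2*-1. Its groups overlapped, at 0.06 (SE 0.13, edgeR adjusted p = 0.78). Of the genes that fell, *POLD3* had the next lowest neighbours, with a median of -0.21 and 11 of 30 lower. Without *GMNN* and *CDC7*, left out after their neighbours were seen, 21 of 46 genes were lower (45.7%) and 4 higher, and without *POLD3* as well 20 of 45 (44.4%) and 4, against 16.6% lower and 17.7% higher of all tested genes.

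**Figure D3:**
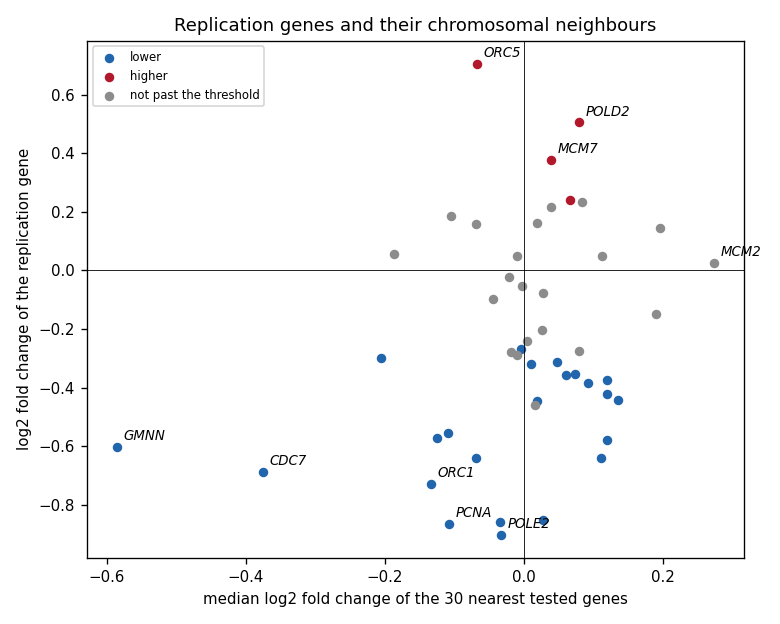
The log2 fold change of each replication gene (y axis) against the median of its 30 nearest tested genes on the same chromosome (x axis), coloured by call as lower (blue), higher (red) or not past the threshold (grey). GMNN and CDC7 lie at the far left, at -0.59 and -0.38. The neighbours' median was within 0.14 of 0 for PCNA, ORC1, POLE2, ORC5, POLD2 and MCM7. The part of the region in the change of any gene was not tested.

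None of the 4 genes of primase and polymerase alpha, which lay down the RNA-DNA primers, passed the test. *POLA2*, the regulatory subunit, stood at 7.55, 6.95 and 6.39 CPM in sgCtrl and 6.02, 5.77 and 5.27 CPM in sg*NF2*-1. The groups did not overlap, but at these low counts the log2 fold change of -0.29 (SE 0.18) did not pass (edgeR adjusted p = 0.21). Of the exonic bases of *POLA2*, 35.1% are shared with an overlapping gene. *POLA1*, the catalytic subunit, was at -0.20 (SE 0.12, edgeR adjusted p = 0.20). *PRIM2*, the large primase subunit, stood at 30.1, 31.0 and 37.0 CPM in sgCtrl and 31.9, 33.8 and 36.0 CPM in sg*NF2*-1. It overlapped fully, at 0.05 (SE 0.11), as did the catalytic subunit *PRIM1* at -0.05 (SE 0.22).

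The replicative polymerases held the deepest fall and a clear rise. *POLE2*, the second subunit of the leading-strand polymerase epsilon, stood at 4.31, 5.79 and 6.06 CPM in sgCtrl and 2.67, 3.30 and 2.67 CPM in sg*NF2*-1. It was lower in all 3 libraries, at -0.90 (SE 0.23, edgeR adjusted p = 0.0030), from low counts. *POLD2*, the accessory subunit of the lagging-strand polymerase delta, stood at 188, 181 and 203 CPM in sgCtrl and 257, 256 and 299.8 CPM in sg*NF2*-1. It was higher in all 3 libraries, at 0.51 (SE 0.09, edgeR adjusted p = 4.9e-05). *POLD3*, another subunit of polymerase delta, fell by 0.30 on the log2 scale (edgeR adjusted p = 0.027), a call lost in 4 of the 6 fits with a library left out and with no filter on low counts (adjusted p up to 0.11). The catalytic subunits *POLD1* and *POLE* were at 0.05 and -0.28 (edgeR adjusted p = 0.72 and 0.057). Per length, *POLD2* was at 7.83 ± 0.59 times the FPKM of *POLD3* in sgCtrl and 13.7 ± 1.3 times in sg*NF2*-1 (SD, n = 3), again a pair picked after its values were seen.

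*PCNA*, the sliding clamp that tethers polymerases to DNA, gave the firmest fall of the 48. It stood at 160.3, 148 and 158 CPM in sgCtrl and 84.0, 81.1 and 90.8 CPM in sg*NF2*-1. The groups were far apart, with sg*NF2*-1 at 54.9% of the sgCtrl mean and a log2 fold change of -0.86 (SE 0.08, edgeR adjusted p = 1.2e-08). It was also the most abundant of the 48 per length in sgCtrl, at 100.04 ± 4.2 FPKM against 54.4 ± 3.1 in sg*NF2*-1, where *POLD2* passed it at 68.8 ± 6.3 (SD, n = 3). The pseudogenes *PCNAP1*, *PCNAP3* and *PCNAP4* had 0 counts in these libraries, and how reads matching both were handled is not given in the sources used here. The clamp loader did not follow. *RFC1*, its large subunit, stood at 138, 137 and 152 CPM in sgCtrl and 181, 166 and 157 CPM in sg*NF2*-1. It was higher in all 3 libraries by a narrow gap, at 0.24 (SE 0.08, edgeR adjusted p = 0.028), a call lost with library totals as the scale and in 4 of the 6 fits with a library left out (adjusted p up to 0.17). *RFC5* was at -0.31 (edgeR adjusted p = 0.049), a call also lost with DESeq2, with no filter and in 5 of those 6 fits (adjusted p up to 0.22). *RFC2*, *RFC3* and *RFC4* were at 0.15, -0.08 and -0.10, none past the threshold.

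The single-strand binding protein RPA lost transcript in the largest and smallest of its 3 subunits. *RPA3* stood at 55.5, 54.1 and 66.3 CPM in sgCtrl and 43.6, 39.8 and 46.0 CPM in sg*NF2*-1. It was lower in all 3 libraries, at -0.44 (SE 0.10, edgeR adjusted p = 0.0012), and *RPA1* fell by 0.39 on the log2 scale (edgeR adjusted p = 4.0e-04). *RPA2* stood at 59.1, 53.6 and 61.0 CPM in sgCtrl and 54.8, 59.5 and 56.8 CPM in sg*NF2*-1. Its groups overlapped, at -0.02 (SE 0.09, edgeR adjusted p = 0.88).

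Genes that join Okazaki fragments were lower, the nucleases past the test and the ligase not. *FEN1*, the flap endonuclease, stood at 64.3, 54.9 and 61.6 CPM in sgCtrl and 41.5, 34.1 and 40.2 CPM in sg*NF2*-1. It fell without overlap, at -0.64 (SE 0.10, edgeR adjusted p = 1.9e-05). *DNA2*, the nuclease and helicase that cuts long flaps, stood at 12.9, 12.7 and 10.7 CPM in sgCtrl and 8.41, 6.61 and 8.29 CPM in sg*NF2*-1. It also fell without overlap, at -0.64 (SE 0.15, edgeR adjusted p = 0.0021). *LIG1*, the ligase that seals the nicks, stood at 24.0, 24.6 and 24.1 CPM in sgCtrl and 20.9, 18.5 and 22.2 CPM in sg*NF2*-1. Its libraries were below as well, but its change of -0.24 (SE 0.11) did not pass (edgeR adjusted p = 0.10).

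The fork protection genes and the remaining 2 members all fell. *CLSPN*, which codes for claspin, the mediator between fork and checkpoint kinase, stood at 11.0, 14.9 and 10.7 CPM in sgCtrl and 8.30, 7.84 and 3.86 CPM in sg*NF2*-1. The sg*NF2*-1 libraries were lower and uneven, at -0.86 (SE 0.20, edgeR adjusted p = 0.0018). *TIMELESS*, claspin's partner at the fork, stood at 43.1, 41.5 and 41.3 CPM in sgCtrl and 33.2, 38.1 and 33.1 CPM in sg*NF2*-1. It was lower in all 3 libraries, at -0.27 (SE 0.10, edgeR adjusted p = 0.038), a call lost in 4 of the 6 fits with a library left out and with no filter (adjusted p up to 0.15). *MCM8*, a helicase relative that works with MCM9 in repair, stood at 29.4, 29.2 and 27.9 CPM in sgCtrl and 21.3, 18.6 and 18.1 CPM in sg*NF2*-1. Its groups were well apart, at -0.57 (SE 0.11, edgeR adjusted p = 2.9e-04). *UHRF1*, which brings the maintenance DNA methyltransferase to newly copied DNA, stood at 52.5, 50.3 and 45.2 CPM in sgCtrl and 32.2, 31.5 and 37.1 CPM in sg*NF2*-1. It was lower in all 3 libraries, at -0.56 (SE 0.10, edgeR adjusted p = 1.4e-04).

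**Figure D4:**
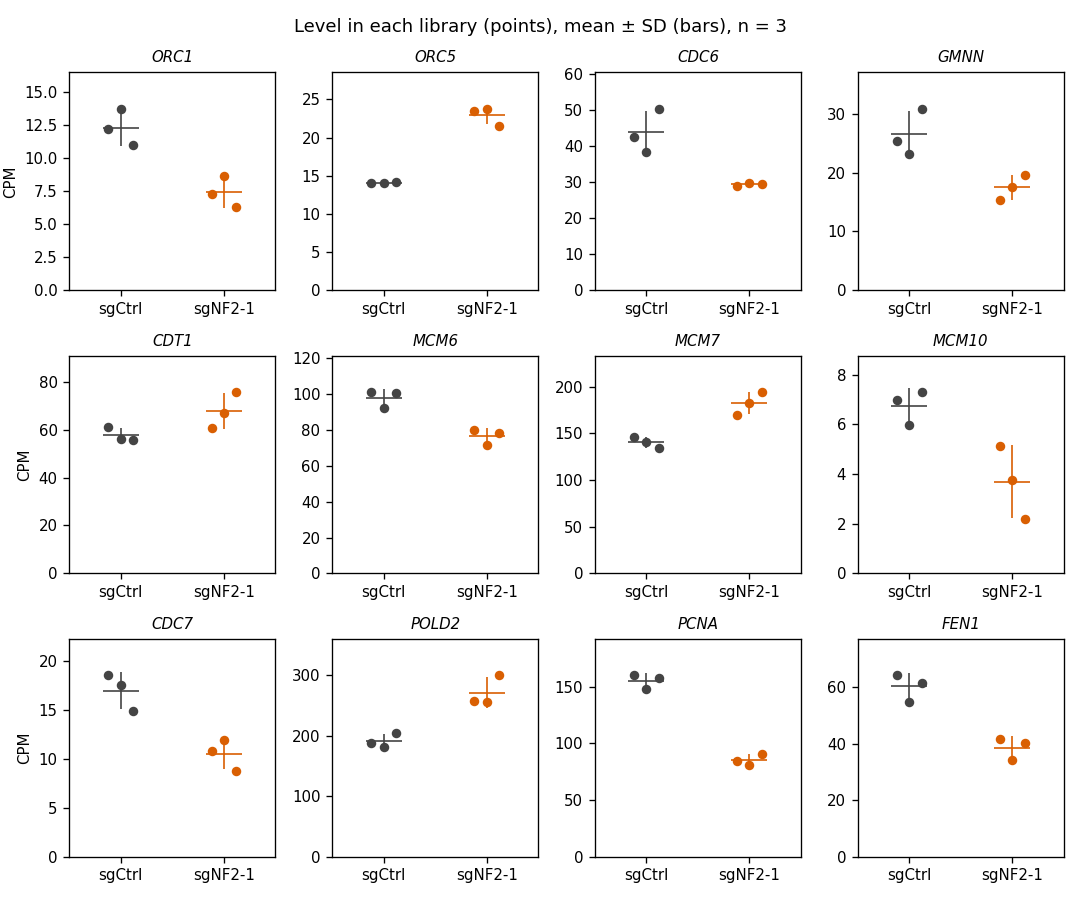
CPM of 12 replication genes (y axis from 0) in each of 3 sgCtrl (grey) and 3 sgNF2-1 (orange) libraries, with the mean and SD. The groups are apart for ORC5, MCM7 and POLD2 (higher) and for ORC1, CDC6, GMNN, MCM6, MCM10, CDC7, PCNA and FEN1 (lower), and overlap for CDT1.

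By position, 3 of the 4 genes that rose lie on chromosome 7. *ORC5* (chr7:104126341-104208047, hg38), *MCM7* (chr7:100092728-100101940) and *POLD2* (chr7:44114681-44124358) are 3 of 6 members there, of which *RPA3* fell and *DBF4* and *RFC2* did not pass. For chromosome 7 as a whole the median was 0.01 over 695 tested genes, with 18.8% higher and 17.0% lower. The 30 nearest tested genes had medians of -0.07 around *ORC5*, 0.04 around *MCM7* and 0.08 around *POLD2*, and the part of position in these rises was not tested. Over the 48 genes, the Spearman correlation of level in FPKM and log2 fold change was 0.30, a description across genes measured in the same libraries.

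Genes related to replication were read for comparison, each list by its counts and median. Over all tested genes, 16.6% were lower and 17.7% higher by the same test. Of 38 other replication genes 37 were tested, 9 lower (24.3%) and 4 higher (10.8%) with a median log2 fold change of -0.01. The largest changes were in *DSCC1* (-1.41) and *ATAD5* (-0.71), subunits of other clamp loaders, and *TICRR* (-0.62), an origin firing factor. *DSCC1* was close to the detection floor, its mean dropping from 1.98 to 0.73 CPM, and it was too low for the limma test on FPKM. *ATAD5* and *TICRR* did not pass that limma test (adjusted p = 0.067 and 0.062). The 8 genes of deoxynucleotide supply had 6 lower, none higher and a median of -0.32, with *RRM2* and *RRM1*, the subunits of ribonucleotide reductase, at -0.61 and -0.58 and *TYMS*, thymidylate synthase, at -0.39. *RRM1* fell from 130.1 ± 10.3 to 87.0 ± 5.4 CPM (SD, n = 3, edgeR adjusted p = 9.4e-06).

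Of the 18 genes of E2F factors, their DP partners, pocket proteins and S-phase cyclins and kinase, 9 (50%) were lower and 1 (5.56%) higher. Their median was -0.23. *CCNE2*, a cyclin of the G1 to S transition, was at -1.25, *E2F8* at -0.85 and *E2F2* at -0.69, and *E2F5* was the gene that rose (0.68). *CCNE2* was low, its mean dropping from 3.02 to 1.26 CPM, and had no limma test on FPKM, which *E2F8* and *E2F2* passed. *E2F5* went from 3.06 ± 1.24 to 4.90 ± 0.60 CPM (SD, n = 3) with overlapping groups. It passed by edgeR (adjusted p = 0.041) but not by limma on FPKM (adjusted p = 0.18). *E2F1*, named after its values were seen, fell from 52.9 ± 7.1 to 35.0 ± 2.2 CPM (SD, n = 3, edgeR adjusted p = 8.5e-05). Of 20 mitotic genes 8 (40%) were lower and 1 (5%) higher, with a median of -0.12, led by *KIF20A* (-0.59), *KIF11* (-0.47) and *BUB1B* (-0.46). These lists were not set against each other by a test.

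**Figure D5:**
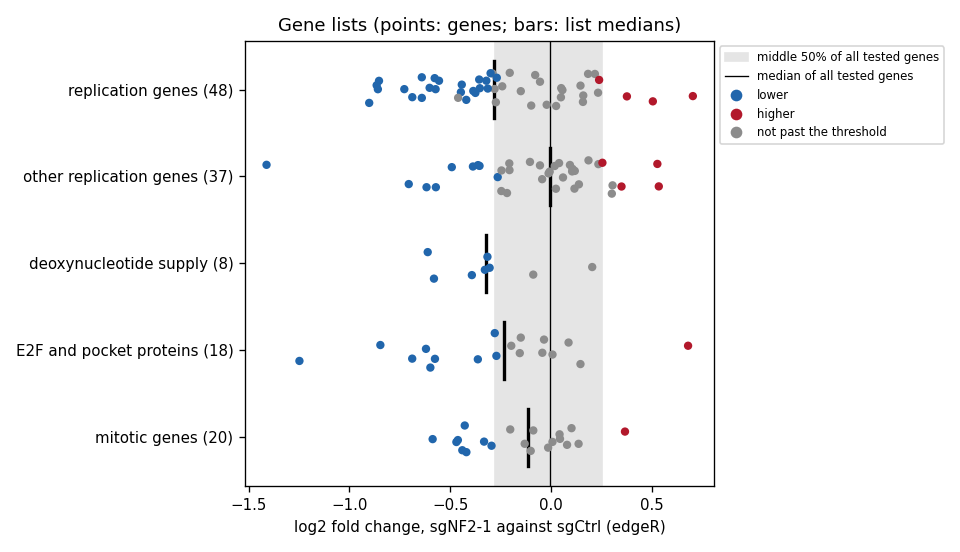
Log2 fold change in sgNF2-1 against sgCtrl (x axis) of the tested genes of 5 lists (points, coloured by call; black bars are list medians) over the middle 50% of all tested genes (grey band). The medians are -0.28 for the replication genes, -0.01 for other replication genes, -0.32 for deoxynucleotide supply, -0.23 for E2F and pocket proteins and -0.12 for mitotic genes.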

How the data were processed

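RNA of 3 sgCtrl and 3 sg*NF2*-1 libraries (RNA-seq, paired ends) was analysed, grouped by the sample titles. The authors deposited a table of raw counts per gene and a table of FPKM values. The submitters' processing notes name HISAT2, StringTie 1.3.3b, featureCounts 1.5.0-p3 and hg38, without roles. The strand setting and the handling of reads with several matches are not given in the sources used here, so genes that overlap on opposite strands are uncertain. The deposited FPKM equalled count over length and a depth per library within 0.1% for all genes with at least 10 counts.

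Counts were filtered with filterByExpr (minimum count 10, minimum total 15), scaled by TMM and tested with edgeR 4.0.16 (quasi-likelihood) in R 4.3.3, with Benjamini-Hochberg adjustment over 14179 genes. FPKM were tested with limma 3.58.1 on log2(FPKM + 1) for genes with a mean of at least 0.5, a scale that understates changes of low genes. An exact permutation test of 3 against 3 cannot go below p = 0.1, so none is quoted. Within a group, pairs of libraries differed by 5.17 to 12.6 times the counting noise (chi-square per degree of freedom), and between groups by 40.1 to 52.7 times. Total counts of 14782423 to 17416463 limit the precision of genes under about 10 CPM.

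The members and gene lists were chosen with earlier results of these data known. Named are all 48 members, *NF2* and, per list, the 3 genes with the largest change at an adjusted p under 0.05, and other genes as stated. Further cell type markers were named as checks of the cells, after their values were seen. A member has its value given in every library where its log2 fold change is beyond 0.5 or is an extreme of its complex. Motifs were searched in RefSeq promoters. Alternatives were DESeq2 1.42.0, its size factors, library totals, no or a stricter filter, a replicate block, adjusted p with the fold limit, leaving out each library, and for FPKM another pseudocount, no filter and the block. The procedures were tested on simulated data.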

Additional observations from a re-analysis of the deposited data

How the results depend on the processing

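Of the 27 replication genes called, 20 kept call and direction in all 12 other fits of the counts, and the 7 that did not are *ORC6*, *GINS2*, *GINS3*, *POLD3*, *RFC1*, *RFC5* and *TIMELESS*. By limma on FPKM, *MCM10* lost its call too (adjusted p = 0.052). With library totals as the scale, which moved the median of all tested genes by -0.03, the median of the 48 was -0.31, 1 gene was higher past the fold limit instead of 2, and *MCM2*, not called in any fit, turned to -0.0023. With at least 10 counts in every library, 1 gene was higher past the fold limit. Leaving out a library gave 18 to 22 lower, 3 to 6 higher, 1 to 2 higher past the fold limit, and, by limma on FPKM, 14 to 17 lower against 20 with all libraries and 3 to 5 higher. In these fits the sign turned for genes that were never called: *DBF4* (-0.032 to 0.11), *PRIM1* (-0.28 to 0.20), *PRIM2* (-0.0053 to 0.15), *POLD1* (-0.029 to 0.13) and *RPA2* (-0.075 to 0.019). With a replicate block, 24 genes were lower and 4 higher by edgeR, *POLE* being gained, and 17 and 3 by limma on FPKM. Same-numbered libraries did not deviate together (correlations -0.03, 0.06 and 0.05), which does not settle whether they shared a culture or preparation. Low counts limit *POLE2*, *MCM10*, *GINS4*, *PRIM1* and *POLA2*, whose changes have SEs of 0.18 to 0.23.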
